A study of Mus musculus with 8 samples.

Results

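Cd59a is the gene of a complement inhibitor, and its transcript was followed here on 8 two-colour DNA arrays of cultured cortical astrocytes from newborn mice. It was found by its symbol in the probe annotation, which gives it 1 feature, and it is 1 of 5822 genes named on the array. Cd59a was picked because it had the smallest p of the named genes between the genotypes on these same arrays, so it was chosen by its ratios in Cx43 KO against WT, and that difference is given as a description, with no test. The next named genes in that order were Camsap1, with a difference of 1.56 between the genotypes on the log2 scale, and 2210409E12Rik, with -1.18.

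The Cx43 KO group held 4 arrays of astrocytes from mice null for connexin43, the main gap junction protein of astrocytes, and the WT group 4 arrays of astrocytes from wild-type mice. Both groups were labelled as cultures of cortical astrocytes from neonatal animals, and the labels name the C57BL/6j strain for WT 1. The labels used here do not give the strain of the Cx43 KO mice, the allele that removes connexin43 or the number of animals or cultures, so the spread between arrays may be technical. Each array set astrocyte RNA in channel 2 against a pool of adult male and female mouse tissues in channel 1 (brain, lung, liver, kidney and spleen, heart and aorta, stomach, and ovary or testicles). The arrays are numbered 1 to 4 in each genotype, and each number is also a lot batch that held 1 array of each genotype. The title of Cx43 KO 3 reads Cx43 without the word KO. Gja1, the gene of connexin43, had 0 features in the annotation, so the targeted transcript does not check the labels here.

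Complement is a cascade of blood and tissue proteins that marks cells and ends in a ring-shaped pore, the membrane attack complex, built into the membrane of the marked cell. The CD59 protein sits on the outer face of the membrane on a glycosylphosphatidylinositol (GPI) anchor and stops the last complement proteins from completing that pore. In mice the gene is duplicated, and Cd59a and Cd59b lie side by side on chromosome 2. Cd59a is the broadly expressed copy, and Cd59b is best known from testis, which was 1 of the tissues in the pool.

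The stretches around the annotated starts of both copies are shown because the copies are compared throughout, and a shared upstream sequence would be visible in them. Each runs from 250 bases before the start to 50 bases after it on the plus strand of GRCm38.p6, from RefSeq, at chr2:104095551-104095850 for Cd59a and chr2:104070816-104071115 for Cd59b. Capitals mark every match, on either strand, to any of 5 motifs, and no matches overlap. The TATA box was searched by the letters TATAAA. The box of the CCAAT-binding factors was searched by those 5 letters. The GC box of Sp1 was searched by the letters GGGCGG. The CACCC box of the Klf factors was searched by the letters CCACACCC. The site of the AP-1 factors was searched by the letters TGACTCA. This set was chosen after the sequences were seen.
Cd59a: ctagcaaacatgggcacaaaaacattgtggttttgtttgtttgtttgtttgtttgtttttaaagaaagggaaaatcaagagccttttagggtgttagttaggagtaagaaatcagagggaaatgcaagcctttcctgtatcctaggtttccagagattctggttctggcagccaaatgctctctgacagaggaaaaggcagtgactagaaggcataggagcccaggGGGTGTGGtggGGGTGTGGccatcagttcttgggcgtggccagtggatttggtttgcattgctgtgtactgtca
Cd59b: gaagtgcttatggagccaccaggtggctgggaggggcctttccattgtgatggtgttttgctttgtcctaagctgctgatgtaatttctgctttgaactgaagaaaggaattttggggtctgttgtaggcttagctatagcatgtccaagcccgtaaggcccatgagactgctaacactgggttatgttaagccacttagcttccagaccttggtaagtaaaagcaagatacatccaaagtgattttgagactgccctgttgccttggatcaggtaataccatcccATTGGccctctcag
The Cd59a stretch held 2 copies of the CACCC box letters on the reverse strand, beginning 24 and 13 bases before the start, and the Cd59b stretch held the CCAAT letters after its start. Of 32851 mouse promoter stretches of the same length, 3.56% held the CACCC letters, 37.4% the CCAAT letters, 13.6% the TATA letters, 35.7% the GC box letters and 5.2% the AP-1 letters. The longest run of bases found in both stretches on the same strand was 8. A match is a description of the letters and not a binding site.

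Each value below is the log2 ratio of astrocytes over the tissue pool, centred on the median ratio of its array, so that 0 is the level of the middle measured feature. Base 2 is assumed, and the labels do not name the dyes. The ratio was read as astrocytes over pool because the astrocyte gene Fabp7, a fatty acid binding protein, ranged over 3.06 to 4.45 in Cx43 KO and 4.19 to 4.61 in WT, while the myelin gene Mbp, abundant in the adult brain of the pool, lay at -5.58 and -5.55 on the 2 Cx43 KO arrays with a ratio and -5.88 to -4.53 in WT. If the ratio ran the other way, every sign below would turn. Between 3506 and 5514 of the 9568 features carried a ratio on an array, exact 0 being read as none, and array profiles over the 2163 named genes with 8 ratios correlated at r = 0.67 to 0.92 across genes.

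Cd59a had a ratio on all 8 arrays. Its ratio was -0.33, -0.23, -0.34 and -1.11 on Cx43 KO 1 to 4, with 0.80, 0.90, 0.63 and 0.92 on WT 1 to 4. The 4 Cx43 KO arrays all lay below the 4 WT arrays, and Cx43 KO 4 lay far below the other Cx43 KO arrays. The means were -0.50 ± 0.41 in Cx43 KO and 0.81 ± 0.13 in WT (SD, n = 4 each), a difference of -1.32 on the log2 scale, or 2.50-fold lower in Cx43 KO. The lowest WT array and the highest Cx43 KO array were 0.86 apart, where the next gene by this gap, 2210409E12Rik, had 0.37. Of the 2163 genes, 49 (2.27%) had every Cx43 KO array below every WT array, and 35 (1.62%) every Cx43 KO array above every WT array. Cd59a is one of the 49, but it was chosen for its small p in this contrast, so neither its place among them nor its gap is separate support.

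**Figure D1:**
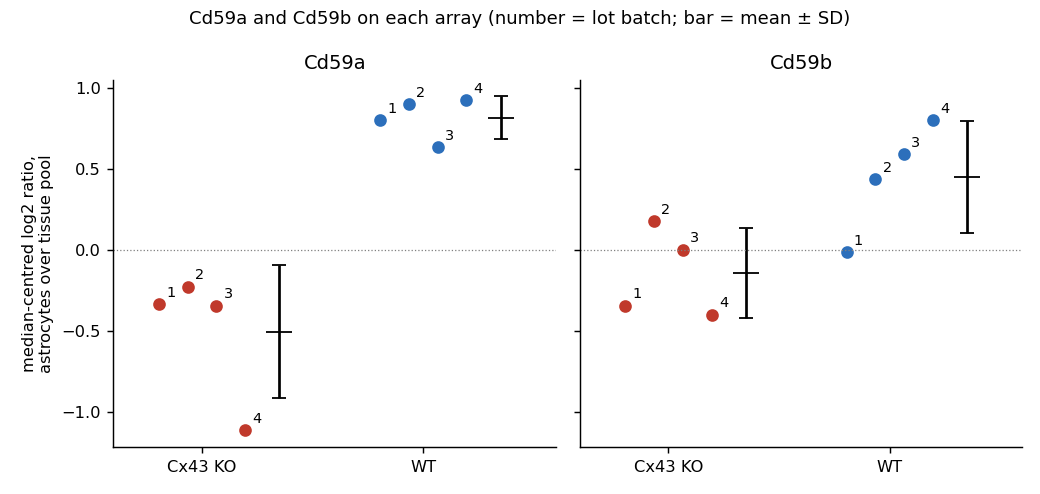
Median-centred log2 ratio of astrocytes over tissue pool (vertical axis) for Cd59a on the left and its duplicate Cd59b on the right, with Cx43 KO arrays in red and WT arrays in blue, 1 point per array numbered by lot batch, and the mean ± SD of 4 arrays as a black bar. For Cd59a all Cx43 KO points lie at or below -0.23 and all WT points at or above 0.63, whereas the points of Cd59b overlap.

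As a rank, Cd59a lay near the top of the measured genes in WT and below the middle in Cx43 KO. It stood at percentiles 32.0, 39.3, 31.7 and 11.1 of the 2163 genes on Cx43 KO 1 to 4, while WT 1 to 4 had 85.9, 86.7, 82.0 and 85.6. The WT arrays lay close together in rank, and Cx43 KO 4 lay well below the other Cx43 KO arrays. Within lot batches 1 to 4 the difference between the Cx43 KO and the WT array was -1.14, -1.13, -0.98 and -2.04. It had the same sign in 4 of 4 lot batches, with the largest size in the batch that holds Cx43 KO 4.

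The difference hardly moved with the way the arrays were set level. Without centring it was -1.32, centred on features with a ratio on all 8 arrays -1.33, and centred on the mean -1.32. With scale normalization it was -1.34, with quantile normalization -1.35, and centred on 8 core ribosomal protein genes -1.37. Under each of these settings every Cx43 KO array stayed below every WT array. The genotypes came closest when centred on ribosomal protein genes, with the highest Cx43 KO array at 0.51 and the lowest WT array at 0.72. With median centring these were -0.23 and 0.63. The level over the pool did move. The WT arrays lay above 0 under each setting and Cx43 KO 4 below 0, but Cx43 KO 1, 2 and 3 lay at 0.26, 0.51 and 0.28 when centred on ribosomal protein genes, and Cx43 KO 2 lay at 0.05 without centring, so whether these 3 cultures held less Cd59a transcript than the pool depends on the centring.

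**Figure D2:**
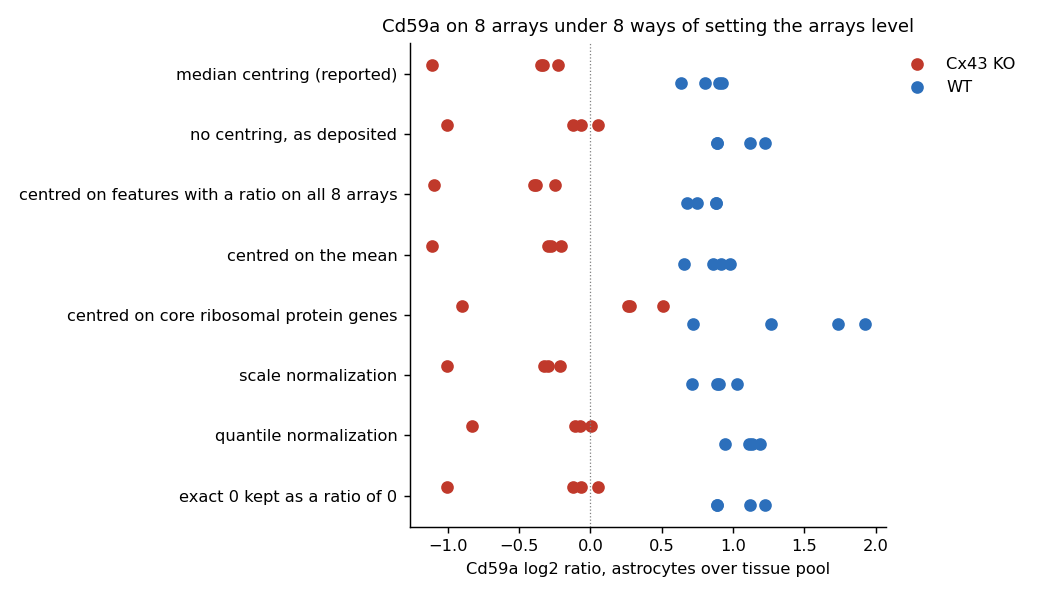
Cd59a log2 ratio of astrocytes over tissue pool (horizontal axis) on each of 8 arrays under 8 ways of setting the arrays level (vertical axis), Cx43 KO in red above WT in blue in each row. The red and blue points do not overlap in any row, and the distance from 0 shifts most when ribosomal protein genes set the level, with WT points there at 0.72 to 1.92.

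Leaving out 1 array or 1 lot batch gave Cd59a differences between -1.43 and -1.08. The difference nearest to 0 came without lot batch 4, and without Cx43 KO 4 alone it was -1.12.

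Of 3505 genes and unnamed features tested with limma, 0 (0%) passed at an adjusted p of 0.05, Cd59a included. At an unadjusted p of 0.05 there were 263 (7.5%), of which 128 (3.65%) were lower and 135 (3.85%) higher in Cx43 KO. Without Cx43 KO 4 the fit passed 4, Cd59a among them. Slc13a4, a marker on the fibroblast, meningeal and mural list, passed there too (difference -1.82, limma adjusted p = 0.0318). With array weights the fit passed 2, again with Cd59a. Centred on ribosomal protein genes, and likewise without WT 2, it passed 1, an unnamed feature and not Cd59a. The same unnamed feature passed under each of these settings. Since Cd59a was chosen for this contrast, its calls are not separate support.

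Cd59b, the adjacent copy, lay lower in Cx43 KO in the mean but its groups overlapped. It lay at -0.34, 0.18, 0.0019 and -0.40 on Cx43 KO 1 to 4, and at -0.02, 0.44, 0.59 and 0.80 on WT 1 to 4. WT 1 lay below Cx43 KO 2 and 3. The means were -0.14 ± 0.28 in Cx43 KO and 0.45 ± 0.35 in WT (SD, n = 4 each), a difference of -0.59 (SE 0.22, limma adjusted p = 0.655), which did not pass. Within lot batches 1 to 4 the difference was -0.33, -0.26, -0.59 and -1.20. The ratio of Cd59a minus that of Cd59b, which no centring can move, was 0.0082, -0.40, -0.35 and -0.71 on Cx43 KO 1 to 4, and 0.82, 0.47, 0.04 and 0.12 on WT 1 to 4. The groups of that difference were 0.03 apart, with a mean of -0.36 ± 0.30 in Cx43 KO and 0.36 ± 0.35 in WT (SD, n = 4 each). Since Cd59a, and not Cd59b, was chosen for its difference between the genotypes, the distance between the copies is partly set by that choice and was not tested. The copies are related in sequence, and how far each feature hybridised to RNA of the other copy was not tested.

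The genes around Cd59a on chromosome 2 were taken from the order of the gene table, 30 on each side. Of these, 12 had a feature, 2 of the 12 had no ratio (Abtb2 and Caprin1), and 8 had enough ratios for the test. In the mean 4 of the 8 lay lower in Cx43 KO and 4 higher, where 47.1% of the 2900 named genes tested lay lower, and 0 passed at an adjusted p of 0.05 with limma. At an unadjusted p of 0.05 there were 2 of the 8, beside 7.5% of all genes and features tested, namely Cd59b and Lmo2, a transcriptional partner protein of blood and vessel precursors. Lmo2 lay at -1.01, -1.33, -0.61 and -0.42 on Cx43 KO 1 to 4 and at -0.39, -0.29, 0.12 and -0.65 on WT 1 to 4, and these values overlap (difference -0.54, SE 0.24, limma adjusted p = 0.666). Pdhx, a subunit of the pyruvate dehydrogenase complex, and Apip, an enzyme of methionine salvage, differed by -0.41 and -0.24. Cd44, the hyaluronan receptor, differed by 0.53, the translation initiation subunit Eif3m by 0.47, the endoplasmic reticulum protein Rcn1 by 0.05 and D430041D05Rik by 0.04. Of the remaining neighbours with a ratio, Qser1 had one on 1 WT array and 2310047K21Rik on 3 Cx43 KO and 2 WT arrays.

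**Figure D3:**
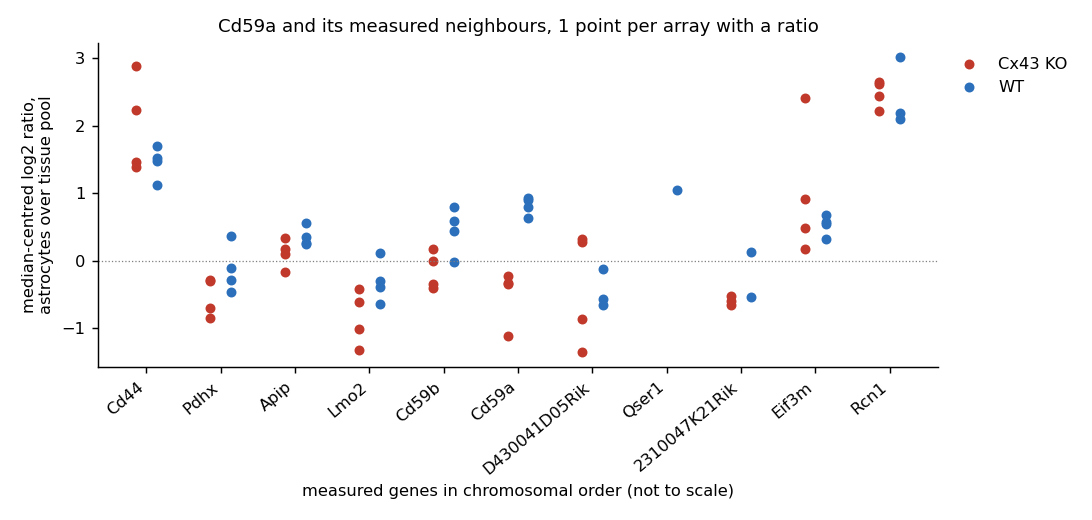
Median-centred log2 ratio of astrocytes over tissue pool (vertical axis) for Cd59a and the measured genes among the 30 on each side of it, in chromosomal order and not to scale (horizontal axis), Cx43 KO arrays in red and WT arrays in blue, 1 point per array with a ratio. Among those tested, Cd59a is the gene whose red and blue points do not overlap, while Cd59b next to it has Cx43 KO points from -0.40 to 0.18 and WT points from -0.02 to 0.80.

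Most other complement genes gave too few ratios to compare. Of 44 complement components and receptors 14 were on the array, 9 of these had no ratio on any array, and Itgam was the 1 gene tested. Itgam, the alpha chain of complement receptor 3 on microglia and macrophages, lay at -0.51, 0.04, 0.89 and 2.46 on Cx43 KO 1 to 4 and at 0.10, 0.92, 1.54 and 0.66 on WT 1 to 4 (difference -0.09, SE 0.56, limma adjusted p = 0.986). Its highest value was on Cx43 KO 4, where Cd59a was lowest. Cfb, factor B of the alternative pathway, lay at -4.74, -4.15 and -0.59 on Cx43 KO 1, 3 and 4, and at -4.76 and -4.95 on WT 1 and 4. Cfb was far below the pool on 4 of the 5 arrays with a ratio and stood apart on Cx43 KO 4. C1qc, a chain of the starter protein of the classical pathway, had ratios of 1.26 on Cx43 KO 3 and 1.63 on WT 4, and Hc, the gene of complement component 5, a ratio of -0.18 on WT 4. Itgax, the alpha chain of a related receptor, had a ratio on Cx43 KO 1 alone (-0.996).

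Of 19 complement inhibitors besides Cd59a, 2 were on the array, Cd59b and Cd55. Cd55, the decay accelerating factor, which breaks up the enzymes that activate complement component 3 and is GPI-anchored like CD59, lay at -2.77, -3.14 and -1.63 on Cx43 KO 1, 3 and 4, and at -1.20 and -2.30 on WT 1 and 4. The Cd55 values overlap between the genotypes and all lie below the pool, and with 2 WT ratios the gene was not tested.

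The genes that build and attach the GPI anchor showed no call. Of 34 such genes 11 were on the array and 7 were tested, 4 higher and 3 lower in Cx43 KO, with 0 past an adjusted p of 0.05 and 0 past an unadjusted p of 0.05 with limma. Their median difference was 0.06, beside 0.02 over all named genes tested. The 3 with the smallest p were Pigl, an early enzyme of anchor synthesis, at 0.17, Pigk, the catalytic subunit of the transamidase that attaches the anchor, at 0.16, and Pigq, a subunit of the first enzyme, at -0.14.

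Among 95 other genes of GPI-anchored or Ly6 family surface proteins, 30 were on the array and 14 were tested, 6 higher and 8 lower, with a median difference of -0.24. None passed at an adjusted p of 0.05 with limma, and 3 of the 14 were lower at an unadjusted p of 0.05, namely Folr2, Cd59b and Gpc2, where 3.65% of all genes and features tested were. Folr2, a folate receptor found on macrophages, lay at -0.69, 0.07, -0.97 and -0.61 on Cx43 KO 1 to 4 and at 0.61, 1.21, 1.25 and 0.07 on WT 1 to 4, a difference of -1.34 (SE 0.31, limma adjusted p = 0.449). Gpc2, a glypican, lay at -0.06, 0.06, -0.21 and -0.53 on Cx43 KO 1 to 4 and at 0.54, 0.33, -0.15 and 0.67 on WT 1 to 4, a difference of -0.54 (SE 0.22, limma adjusted p = 0.655). The Folr2 values of the genotypes touched without overlap, Cx43 KO 2 (0.0664) lying just below WT 4 (0.0742), and for Gpc2 WT 3 lay within the Cx43 KO values.

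Markers of other cell types were set beside Cd59a on each array, since in a culture fewer cells of a type and less RNA per cell cannot be told apart. On Cx43 KO 4 the mean of 4 astrocyte markers was 0.39, where Cx43 KO 1 to 3 had 1.73 to 1.82 and WT 1.62 to 2.01. For 9 microglia and macrophage markers the mean there was 2.10, beside -0.10, 0.25 and 1.23 on Cx43 KO 1 to 3 and 0.66 to 1.24 in WT. Of these markers Cd68, Itgam, Cd53, Adgre1 and Rac2 were highest on Cx43 KO 4, Tyrobp and Irf8 on WT 2, and Tmem119 and Lgmn on Cx43 KO 3. The mean of 7 fibroblast, meningeal and mural markers was -0.92, -0.67, 0.54 and 1.95 on Cx43 KO 1 to 4, and 0.34 to 1.88 in WT. Cx43 KO 4 thus lay apart from the other 7 arrays in its astrocyte and microglia means, but in the fibroblast, meningeal and mural mean it lay close to WT 1. Cx43 KO 1 and 2 also left the WT ranges, in the other direction. Their microglia means and their fibroblast, meningeal and mural means lay below those of every WT array, with astrocyte means within the WT range. On Cx43 KO 3 the means of these 3 lists lay within their WT ranges, but single fibroblast and meningeal markers lay below every WT ratio there. The collagen gene Col6a3 lay at -2.40 on Cx43 KO 3 (WT -1.25 to 0.91), the growth factor receptor Pdgfra at -1.50 (WT 0.05 to 1.96) and the sulfate transporter Slc13a4 at -0.45 (WT 0.85 to 1.46). Lum, Col3a1 and Islr also lay below every WT ratio there. In contrast, Fmod lay above every WT ratio, at 3.91 (WT 2.64 to 3.45), and Col1a1, Fn1, Ptgds, Col6a1 and Rgs5 lay within their WT ranges. With limma 0 of the 10 tested fibroblast, meningeal and mural markers passed at an adjusted p of 0.05, and 3 of them (Pdgfra, Ptgds and Slc13a4) were lower in Cx43 KO at an unadjusted p of 0.05, as were 3.65% of all genes and features tested. Of 11 genes of endothelial and red blood cells, which carry CD59 in the body, 2 had no ratio (Ramp2 and Alas2) and 1 was tested, Cdh5, the cadherin of endothelial junctions. Cdh5 lay at -0.93, -1.65 and -0.47 on Cx43 KO 2 to 4 and at 1.16, -1.20, -1.39 and -0.16 on WT 1 to 4, so the genotypes overlap. Tek, Tie1, Flt1, Eng, Icam2 and Slc4a1 had ratios from -2.87 to -0.12 on the arrays that gave one, and Esam, at 0.27 on Cx43 KO 1, and Emcn, at 0.47 on WT 3, lay above the middle on the 1 array each that gave a ratio. The 3 neuron markers with 8 ratios had means of -0.60, -0.17, -0.55 and -1.88 on Cx43 KO 1 to 4, and -1.10 to -0.19 in WT, and the 1 oligodendrocyte lineage marker, Cnp, was lowest on Cx43 KO 4 at -1.53. The part of these cell types in the level of Cd59a was not tested.

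Genes that varied with Cd59a inside each genotype were sought among the 2162 other genes with 8 ratios, by Pearson r over the 4 arrays of each genotype. Likeness is the smaller of the 2 correlations in size, where both have the same sign. These correlations are descriptions across 4 arrays each, which also share lot batches and the reference pool. Over the Cx43 KO arrays alone 301 genes had r of at least 0.9 and 270 of -0.9 or below, and over the WT arrays alone 115 and 32. A likeness of at least 0.9 was reached by 30 genes and of -0.9 or below by 7. All 30 were lowest on Cx43 KO 4 among the Cx43 KO arrays and lowest on WT 3 among the WT arrays, as Cd59a is, and 288 of all 2162 genes share that order of extremes. All 7 opposite genes were highest on the same arrays, as were 94 of all 2162 genes. Choosing genes by r with Cd59a over 4 arrays favours both patterns, so they are not separate results. Of the 30 genes, 9 lay lower in Cx43 KO in the mean, where 47.1% of the named genes tested did, and 0 had every Cx43 KO array below every WT array, which is near the 2.27% of all genes with 8 ratios.

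**Figure D4:**
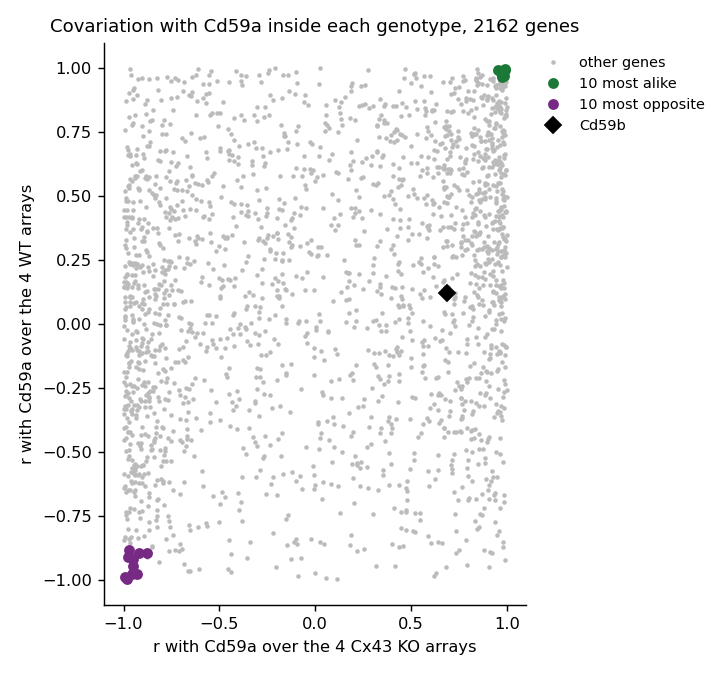
Pearson r with Cd59a over the 4 Cx43 KO arrays (horizontal axis) and over the 4 WT arrays (vertical axis) for 2162 genes, with the 10 most alike in green, the 10 most opposite in purple and Cd59b as a black diamond at 0.69 and 0.12. The points fill the whole square, with more of them near both ends of the Cx43 KO axis, where Cx43 KO 4 stands apart.

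The 10 genes most like Cd59a were Slc3a1, Ilf2, Chd6, Mxi1, Mapt, Mga, Zranb2, Macf1, Tmem33 and Ankrd13c, with r between 0.954 and 0.996 in either genotype. Pooled over 8 arrays with the genotype means removed, their r was 0.86 to 0.99, without Cx43 KO 4 it was 0.76 to 0.98, and without Cx43 KO 4 and WT 3, the arrays farthest from the middle in Cd59a, it was 0.21 to 0.96 over 6 arrays. Mxi1, which pairs with Max and opposes Myc, was the highest of them without these 2 arrays. Mxi1 lay at -0.04, 0.11, -0.0031 and -0.40 on Cx43 KO 1 to 4 and at 0.12, 0.24, -0.0041 and 0.24 on WT 1 to 4. It was lowest on the same array of each genotype as Cd59a, with a difference of -0.23 between the genotypes, whose values overlap. Ankrd13c was the lowest without these 2 arrays, at 0.21.

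Ilf2, an RNA-binding protein, lay at 0.51, 0.51, 0.36 and -0.39 on Cx43 KO 1 to 4 and at 0.35, 0.52, 0.16 and 0.50 on WT 1 to 4. Its groups overlap, with Cx43 KO 4 far below the rest. Slc3a1, a subunit of the cystine and dibasic amino acid transporter, lay at -0.57, -0.52, -0.52 and -1.59 on Cx43 KO 1 to 4 and at -1.30, -0.78, -1.89 and -0.72 on WT 1 to 4. Slc3a1 was highest on 3 of the Cx43 KO arrays, so that its r with Cd59a over all 8 arrays was -0.04 in spite of 0.994 and 0.996 inside the genotypes. Macf1, which links microtubules to actin, lay at 1.25, 1.79, 1.41 and -0.13 on Cx43 KO 1 to 4 and at 0.64, 0.98, 0.31 and 0.85 on WT 1 to 4. The chromatin remodeller Chd6, the microtubule protein tau (Mapt), the Max partner Mga and the splicing protein Zranb2 differed between the genotypes by 0.30, -0.38, 0.14 and 0.08. Of these 10 genes, Ilf2, Mxi1, Macf1 and Ankrd13c kept a likeness of at least 0.9 under all 8 ways of setting the arrays level.

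The 10 genes most opposite to Cd59a were Rbm18, Ankrd10, Lhfpl2, Acp6, Lman1, Armh3, Rbm3, Ccl11, Cox7a2l and Oasl2, with r between -0.997 and -0.878 in either genotype. Rbm18, an RNA-binding motif protein, lay at 0.32, 0.28, 0.43 and 1.03 on Cx43 KO 1 to 4 and at 0.44, 0.41, 0.59 and 0.37 on WT 1 to 4. Lhfpl2 lay at -0.16, 0.29, 0.25 and 2.11 on Cx43 KO 1 to 4 and at 1.56, 1.10, 2.08 and 0.81 on WT 1 to 4. Both were highest where Cd59a was lowest in each genotype. Lman1, a cargo receptor between endoplasmic reticulum and Golgi, and Rbm3, an RNA-binding protein induced by cold, differed between the genotypes by -0.03 and -0.05. The chemokine Ccl11 and the interferon-induced Oasl2 lay at 0.27 and 2.84 on Cx43 KO 4, where the mean of the microglia and macrophage markers was also highest. Pooled inside the genotypes, r was -0.99 to -0.76 over 8 arrays and -0.99 to -0.15 without Cx43 KO 4, the last value being that of Oasl2. Without Cx43 KO 4 and WT 3 it was -0.97 to 0.50 over 6 arrays, where Oasl2 turned to 0.50 and Ccl11 had -0.18. The opposite course of these 2 genes thus rests on the 2 arrays. Lman1 (-0.29), Lhfpl2 (-0.37), Cox7a2l (-0.45) and Armh3 (-0.48) were also weaker without them. Acp6, Rbm18, Rbm3 and Ankrd10 had -0.69, -0.79, -0.88 and -0.97. None of the 10 kept a likeness of -0.9 or below under all 8 ways of setting the arrays level. Centred on ribosomal protein genes, none had a negative r in both genotypes, and Ankrd10 turned to a likeness of 0.81.

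**Figure D5:**
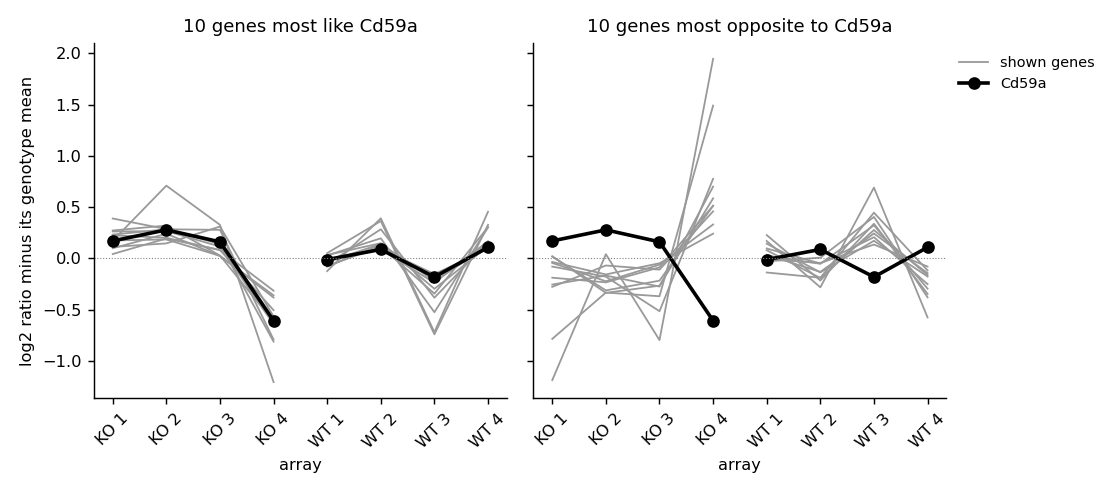
Log2 ratio minus the mean of its genotype (vertical axis) on Cx43 KO 1 to 4 and WT 1 to 4 (horizontal axis), Cd59a in black and the 10 genes most like it (left) or most opposite to it (right) in grey. The grey lines of the left panel dip with Cd59a on Cx43 KO 4 and WT 3, and those of the right panel peak there. Choosing the genes by r with Cd59a favours both shapes.

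Over all 8 arrays, where the distance between the genotypes takes part, the genes most like Cd59a were Dzip1 (r = 0.95), Ybx3 (0.95), Mtres1 (0.90), Mbd6 (0.90) and Mmd2 (0.90), and those most opposite were Hmox1 (-0.94), Cd2ap (-0.93), Ggcx (-0.88), Slk (-0.87) and Rnf114 (-0.87). All 5 on either side separated the genotypes without overlap, which the choice by r with Cd59a favours. Dzip1, a ciliary protein, lay at -0.21, -0.45, -0.29 and -0.68 on Cx43 KO 1 to 4 and at 0.03, 0.32, 0.01 and 0.13 on WT 1 to 4. Ybx3, a cold shock domain protein that binds RNA, lay at -2.38, -2.19, -2.44 and -2.75 on Cx43 KO 1 to 4 and at -1.91, -1.46, -2.03 and -1.69 on WT 1 to 4. Ybx3 also followed Cd59a inside each genotype, at r = 0.94 in Cx43 KO and 0.85 in WT. Hmox1, the stress-induced haem oxygenase, lay at 2.14, 2.23, 2.18 and 3.92 on Cx43 KO 1 to 4 and at 1.00, 1.51, 1.33 and 0.91 on WT 1 to 4. Hmox1 ran opposite to Cd59a inside Cx43 KO (r = -0.99), with its highest value on Cx43 KO 4, and had r = -0.24 inside WT. Cd59b, the neighbouring copy, had r = 0.80 with Cd59a over all 8 arrays, 0.69 inside Cx43 KO and 0.12 inside WT.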

How the data were processed

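The deposited values were log2 ratios of the 2 channels of each array, with base 2 assumed. The labels name the channels, while no source used here gives the scanner, background correction or normalization. With another base, log2 values would be rescaled, and signs, ranks and correlations would stay. Exact 0 was read as no ratio. Names came from the platform annotation (7307 features with 1 symbol, 318 with several, 1943 with none), and 7256 had their Entrez number in the GRCm38.p6 gene table. Features with several symbols stayed unnamed. Each array was centred on its median, and features of a gene were averaged.

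Genes and unnamed features with at least 3 ratios per genotype were tested with limma 3.58.1 (lmFit, eBayes, R 4.3.3), two-sided, with Benjamini-Hochberg adjustment over all 3505 and a threshold of 0.05. A difference is always Cx43 KO minus WT. The scripts were tested on simulated data.

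The rule for named genes took Cd59a, in each direction the 10 of largest likeness and the 5 of largest r over 8 arrays, tested complement genes, the 3 members of each GPI list with the smallest p, measured neighbours and cell markers. Others (complement genes and Cd55 below the test's minimum, Fabp7, Mbp, Camsap1, 2210409E12Rik) were chosen after their values were seen. The gene, lists and tests were chosen with earlier results of these data known. Lot batch, shared by same-numbered arrays per the labels, pairs the genotypes, and the deviations of paired arrays correlated at r = -0.20, 0.19, -0.14 and -0.18 across genes. The number of arrays limits the precision.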

Additional observations from a re-analysis of the deposited data

Results flagged for a closer look

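In groups of 4 arrays, a value was picked out when its gap to the nearest other array, divided by the range of the group, exceeded 0.829 (Dixon's criterion). Of 88 groups of named genes 7 were picked out, 5 of them by Cx43 KO 4, and chance alone picks out about 1 in 20. Many of these genes were chosen for following Cd59a, so their picks are not separate from its own. Cd59a lay at -1.11 on Cx43 KO 4, against -0.34 to -0.23 on the other Cx43 KO arrays. On the same array Slc3a1 lay at -1.59 (others -0.57 to -0.52), Ilf2 at -0.39 (others 0.36 to 0.51), Cox7a2l at 0.0815 (others -0.89 to -0.79) and Hmox1 at 3.92 (others 2.14 to 2.23). Armh3 lay at 0.18 on WT 3, against -0.46 to -0.38 on the other WT arrays. Rnf114 lay at -0.15 on WT 4, against -0.50 to -0.45 on the other WT arrays.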

How the results depend on the processing

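The difference of Cd59a kept its sign and moved by less than the spread within the genotypes (0.30) under all 21 alternatives, between -1.43 and -1.08. It was -1.32 with lot batch as replicate block, which cannot move it because each batch held 1 array of each genotype. For Cd59a, keeping exact 0 as a ratio gave the same values as no centring, so these 2 are not separate alternatives. One of the 21, each other gene in turn as the reference (median -1.34), was chosen after seeing the data, and since Cd59a was chosen for this contrast it is no check of the difference. The complement and GPI lists gave 0 calls under all 21 alternatives, with 22 genes tested in the reported fit, 17 to 22 when arrays or lot batches were left out, and 55 with exact 0 kept as a ratio. The count of genes called, 0 of 3505, was 1 when centred on ribosomal protein genes, 2 with array weights, 0 with the replicate block (196 at an unadjusted p of 0.05) and 0 to 4 when leaving out 1 array or lot batch. The count of genes varying with Cd59a inside both genotypes depended most on the processing. It was 37 as reported (30 positive and 7 negative) and 64 without centring (59 and 5). Centred on ribosomal protein genes it was 522, with 0 negative. It was 20 with scale normalization, 23 with quantile normalization, 76 with exact 0 kept as a ratio, 108 with the pooled r and 16 with Spearman's rho. Leaving out lot batches 1 to 4 gave 170, 186, 272 and 56. Leaving out 1 array gave 16 (without Cx43 KO 4) to 168 (without WT 3). A high r is easier to reach over 3 arrays than over 4, and its part in these counts was not tested. The cause of the other shifts was not tested either. Cd59a has 1 feature, so its features could not be compared, and 4 arrays per genotype limit every value.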
